A study of Homo sapiens with 24 samples.

Results

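The comparison described here is that of 2 control transfections, the empty expression vector pcDNA3.1 and a control siRNA, in HEK293T cells at 24 h. HEK293T is a line of human embryonic kidney origin that is widely used because it takes up nucleic acids readily. Of the 24 arrays in the series, 6 enter the comparison, namely the 3 whose titles give the empty pcDNA3.1 control at 24 h and the 3 whose titles give the control siRNA at 24 h. All 18395 genes with a probe set of a single symbol were compared. The CTRL pcDNA3.1 cells received 0.5 μg of the vector without insert, delivered with Lipofectamine 2000CD, and the CTRL siRNA cells received 40 nM of Silencer Negative Control siRNA #1, delivered with Lipofectamine RNAiMAX. The study used them as the baselines of its overexpression and knockdown arms, in which FMR4 pcDNA3.1 cells received the vector carrying the long non-coding RNA *FMR4* and FMR4 siRNA cells received an siRNA against it, each with the reagent of its arm. All 4 treatments were measured at 6 and 24 h with 3 arrays each, and each array is 1 biological replicate made by pooling 3 technical ones. Because nucleic acid and reagent changed together, their parts in any difference between the 2 control groups cannot be told apart, and cells without transfection were not analysed here. The Affymetrix Human Gene ST array is version 1.0 in the labels but 2.0 in the methods, and its probe set numbers matched the annotation of version 1.0.

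Both kinds of nucleic acid enter through endosomes, but they act in different places. A plasmid has to reach the nucleus to be transcribed, whereas an siRNA is loaded in the cytoplasm into Argonaute proteins, which together with GW182 proteins repress transcripts that pair with its guide strand, also where only the seed of the guide pairs. Proteins bound for the surface or for secretion fold in the endoplasmic reticulum (ER). When unfolded protein accumulates there, the sensors IRE1, PERK and ATF6 raise the transcription of ER chaperones and of factors that degrade misfolded protein, a program called the unfolded protein response. PERK also acts through eIF2α and ATF4 on *ATF3* and *DDIT3*, an arm shared with other kinases as the integrated stress response.

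The deposited values are log2 expression after GC-RMA. Array medians lay between 7.46 and 7.53 in CTRL pcDNA3.1 and between 7.43 and 7.46 in CTRL siRNA at 24 h, so every CTRL pcDNA3.1 array had the higher median, and the array with the highest median of the series was CTRL pcDNA3.1 replicate 2. Genes of olfactory receptors and keratin-associated proteins, 409 in number and mostly silent in these cells, gave the level of a silent gene, with an upper quartile of 5.997. All 15 markers of the HEK293 line that were measured lay above it. So did 7 of 10 blood, 3 of 8 endothelial, 5 of 9 fibroblast and 8 of 10 keratinocyte or gut markers in both groups. Of 11 neuron or glia markers, 8 did in CTRL pcDNA3.1 and 7 in CTRL siRNA, so this level does not separate cell types. The log2 of the summed level of the 15 HEK293 line markers ranged from 13.73 to 13.84 in CTRL pcDNA3.1 and from 13.73 to 13.75 in CTRL siRNA. Among markers of blood, endothelium, fibroblasts, keratinocytes or gut epithelium, and neurons or glia, only *CX3CR1* was called, at values of 5.56, 5.73 and 5.76 in CTRL pcDNA3.1 and 5.26, 5.50 and 5.09 in CTRL siRNA, all below the silent level and with a call that was lost in 4 of the 6 fits with 1 array left out.

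At 24 h, 826 genes (4.49%) differed between CTRL pcDNA3.1 and CTRL siRNA at an adjusted p under 0.05. Of these, 533 (2.9%) were higher and 293 (1.59%) lower in CTRL pcDNA3.1. Most differences were small, with a median log2 difference of 0.35 over the higher and −0.31 over the lower genes. A change of at least 1.5-fold was reached by 57 of the higher and 16 of the lower genes, and one of 2-fold by 4 and 3. The split between higher and lower genes depended on the scaling. It was 478 higher and 514 lower after quantile normalization and 324 higher and 626 lower after centring each array on its median, so the direction of the majority is not fixed by these data, and the median over all genes moved with it (0.018 as deposited, −0.011 and −0.035). The 3 arrays of one group lay wholly above or below those of the other in 26.1% of all genes, so a lack of overlap alone says little about 1 gene. Leaving out 1 array changed the total to between 367 (without CTRL pcDNA3.1 replicate 2) and 674 (without CTRL pcDNA3.1 replicate 1). The other counts were 515, 534 and 456 without CTRL siRNA replicate 1, 2 and 3 and 497 without CTRL pcDNA3.1 replicate 3.

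The 3 deepest falls were those of *GEM*, *INHBA* and *PTGS2*. *GEM*, a small GTP-binding protein that inhibits voltage-gated calcium channels, had values of 7.19, 7.07 and 7.05 in CTRL pcDNA3.1 and 8.29, 7.61 and 8.62 in CTRL siRNA. *INHBA*, which encodes the inhibin βA chain that forms activin A, had 6.69, 6.95 and 6.85 in CTRL pcDNA3.1 and 8.0, 7.42 and 8.20 in CTRL siRNA. *PTGS2*, the inducible cyclooxygenase of prostaglandin synthesis, had 7.18, 7.11 and 7.07 in CTRL pcDNA3.1 and 8.32, 7.49 and 8.65 in CTRL siRNA. The CTRL pcDNA3.1 arrays were low and close together in all 3 genes, and the CTRL siRNA arrays lay above them without overlap but far apart, with replicate 2 the lowest each time. The log2 differences were −1.07 (SE 0.202, adjusted p = 0.00262) for *GEM*, −1.05 (SE 0.166, adjusted p = 0.000467) for *INHBA* and −1.03 (SE 0.192, adjusted p = 0.00215) for *PTGS2*, a 2.10-, 2.06- and 2.05-fold lower level. Each of the 3 kept its call with any 1 array left out.

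The CTRL siRNA arrays lay closer together in *NR6A1* and *ANKRD52*. *NR6A1*, an orphan nuclear receptor of germ cells and early embryos, had 9.41, 9.37 and 9.30 in CTRL pcDNA3.1 and 10.13, 10.09 and 10.21 in CTRL siRNA. *ANKRD52*, a regulatory subunit of protein phosphatase 6, had 9.51, 9.51 and 9.38 in CTRL pcDNA3.1 and 10.29, 10.11 and 10.18 in CTRL siRNA. In both genes the groups stood apart by far more than the arrays within them, with a log2 difference of −0.78 (SE 0.0904, adjusted p = 1.19e-05) for *NR6A1* and one of −0.73 (SE 0.0625, adjusted p = 1.59e-07) for *ANKRD52*. *MICA*, a stress-induced surface ligand of the NKG2D receptor on natural killer cells, fell by 0.76, *NRBP1*, a pseudokinase, by 0.72, and *TPRG1L*, a protein of presynaptic vesicles, by 0.72. Smaller falls were those of *ZMYND11*, a reader of methylated histone H3.3 (−0.61), *ATG14*, the autophagy subunit of a PI3-kinase complex (−0.60), and *TRAK2*, an adaptor that carries mitochondria on kinesin (−0.56). All of these kept their calls with any 1 array left out. *ANXA1*, a phospholipid-binding annexin, had 9.63, 9.42 and 9.63 in CTRL pcDNA3.1 and 10.35, 10.36 and 10.42 in CTRL siRNA, with no overlap. Its difference was −0.82 (SE 0.201, adjusted p = 0.0195), and the call was lost in 5 of the 6 fits with 1 array left out (adjusted p up to 0.104). *NR4A2*, an immediate-early nuclear receptor, had 7.89, 7.60 and 7.73 in CTRL pcDNA3.1 and 8.48, 8.05 and 8.71 in CTRL siRNA, spread again with replicate 2 the lowest. It was lower by 0.68 on the log2 scale and lost its call without CTRL siRNA replicate 3 or CTRL pcDNA3.1 replicate 2. *KRTAP21-2*, a keratin-associated gene, was called at −0.63, with CTRL pcDNA3.1 values of 5.84, 5.63 and 5.78 that lie under the silent level and CTRL siRNA values of 6.57, 6.11 and 6.45 just over it, and lost its call without CTRL siRNA replicate 1 or 3 or CTRL pcDNA3.1 replicate 2.

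**Figure D1:**
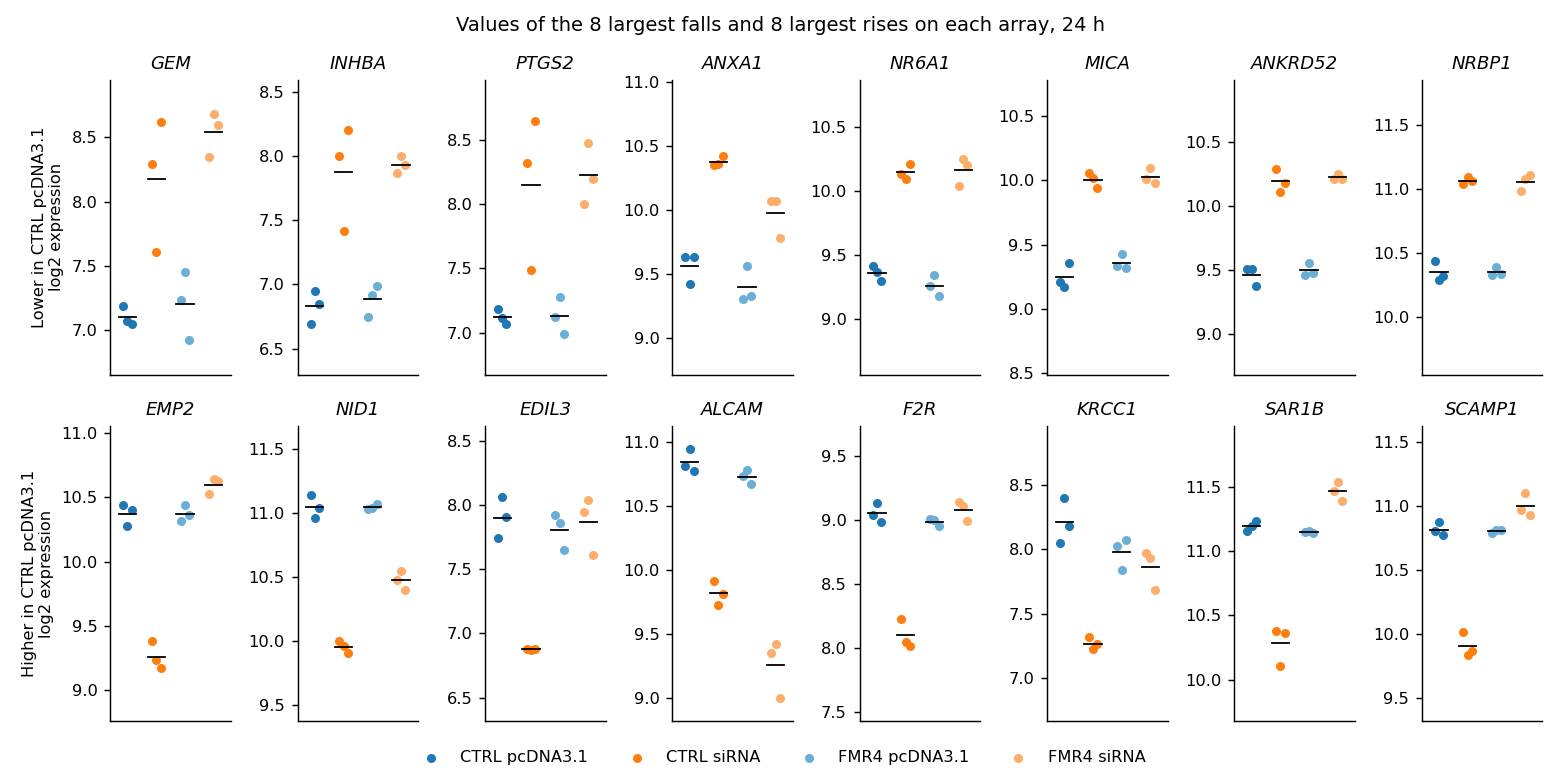
Log2 expression at 24 h on each of the 12 arrays (points) with the mean of each group of 3 (line), for the 8 largest falls (upper row) and the 8 largest rises (lower row) in CTRL pcDNA3.1. Every panel spans the same log2 range. For *GEM*, *INHBA* and *PTGS2* the CTRL siRNA arrays are spread, with replicate 2 lowest. For *EMP2*, *EDIL3*, *F2R* and *SAR1B* the CTRL siRNA arrays lie below the 3 other groups.

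The largest rises included *EMP2*, *NID1* and *ALCAM*. *EMP2*, a tetraspan membrane protein of the PMP22 family, had 10.44, 10.28 and 10.40 in CTRL pcDNA3.1 and 9.38, 9.23 and 9.17 in CTRL siRNA. *NID1*, which links laminin with collagen IV in basement membranes, had 11.14, 10.96 and 11.04 in CTRL pcDNA3.1 and 10, 9.96 and 9.91 in CTRL siRNA. *ALCAM*, the adhesion molecule CD166, had 10.81, 10.94 and 10.77 in CTRL pcDNA3.1 and 9.91, 9.73 and 9.81 in CTRL siRNA. The groups were separated by about a log2 unit in each, and all arrays of a group agreed closely. The log2 differences were 1.12 (SE 0.0937, adjusted p = 1.11e-07) for *EMP2*, 1.09 (SE 0.0756, adjusted p = 8.25e-09) for *NID1* and 1.02 (SE 0.0919, adjusted p = 3.29e-07) for *ALCAM*, or 2.17-, 2.13- and 2.03-fold.

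*EDIL3*, a secreted integrin ligand, had 7.74, 8.06 and 7.91 in CTRL pcDNA3.1 and 6.88, 6.87 and 6.88 in CTRL siRNA. This 1.02 difference had a larger error (SE 0.219, adjusted p = 0.00735) and was lost without CTRL pcDNA3.1 replicate 2 (adjusted p = 0.0525). *SAR1B*, the GTPase that starts the COPII coat for export from the ER, had 11.16, 11.20 and 11.24 in CTRL pcDNA3.1 and 10.38, 10.11 and 10.36 in CTRL siRNA. *IL6ST*, the gp130 subunit shared by receptors of the interleukin 6 family, had 10.35, 10.37 and 10.20 in CTRL pcDNA3.1 and 9.57, 9.24 and 9.42 in CTRL siRNA. Both genes were high on every CTRL pcDNA3.1 array, with differences of 0.92 and 0.90. *F2R*, the thrombin receptor PAR1, rose by 0.95, *KRCC1* by 0.94, *SCAMP1*, a secretory carrier membrane protein, by 0.91, *NDUFA5*, a subunit of respiratory complex I, by 0.85, *TOP1MT*, the mitochondrial topoisomerase I, by 0.82, and *ANO10*, a member of the anoctamin family, by 0.81. *RDX* (radixin, which ties actin to the membrane), *TLN1* (talin 1, which ties integrins to actin), *YWHAH* (14-3-3η) and *SNRNP27* (a spliceosome protein) rose by 0.80, 0.80, 0.79 and 0.71. Of the rises in this paragraph, all but that of *EDIL3* kept their calls with any 1 array left out.

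The unfolded protein response list had the highest share of lower members among the functional lists. Of its 24 measured genes, 7 (29.2%) were lower in CTRL pcDNA3.1, against 1.59% of all genes, and none was higher. The median over the list was −0.17 on the log2 scale, beside 0.018 over all genes, and 21 of the 24 differences lay below 0. *HSPA5*, the main chaperone of the ER lumen (BiP), had 12.64, 12.63 and 12.61 in CTRL pcDNA3.1 and 12.98, 12.70 and 13.08 in CTRL siRNA. *HERPUD1*, a membrane protein of ER-associated degradation, had 11.10, 10.88 and 11.01 in CTRL pcDNA3.1 and 11.64, 11.22 and 11.83 in CTRL siRNA. The groups did not overlap in either gene, but CTRL siRNA replicate 2 lay close to the CTRL pcDNA3.1 arrays. The differences were −0.29 (SE 0.0739, adjusted p = 0.024) for *HSPA5* and −0.57 (SE 0.107, adjusted p = 0.00261) for *HERPUD1*. The other 5 were *DNAJB9*, a J-domain cochaperone of BiP (−0.57), *DERL3* (−0.49), *SYVN1*, the ubiquitin ligase of ER-associated degradation (−0.36), *EDEM1*, which hands misfolded glycoproteins to degradation (−0.34), and *CALR*, the lectin chaperone calreticulin (−0.24). Among members that did not pass, the sensor genes *EIF2AK3* (PERK), *ATF6* and *ERN1* (IRE1) had differences of −0.28, −0.02 and 0.01, and *XBP1*, the transcription factor that IRE1 activates by splicing, had −0.16.

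The mean of the 24 genes on each array was 10.62, 10.56 and 10.55 in CTRL pcDNA3.1 and 10.82, 10.61 and 10.89 in CTRL siRNA. CTRL siRNA replicate 2 was therefore nearer to the CTRL pcDNA3.1 arrays than to its own group, and it was the siRNA array nearest to them in all 7 called members. Over all 293 lower genes the same array was nearest in 186 (63.5%), over the 533 higher genes in 83 (15.6%), and over all genes in 34.2%. The number of called members followed single arrays. Without CTRL siRNA replicate 2 it was 10, without CTRL siRNA replicate 1 or 3 it was 2, without CTRL pcDNA3.1 replicate 1, 2 or 3 it was 5, 1 or 2, and only *HERPUD1* kept its call in every one of these fits. The list median stayed between −0.23 and −0.10.

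**Figure D2:**
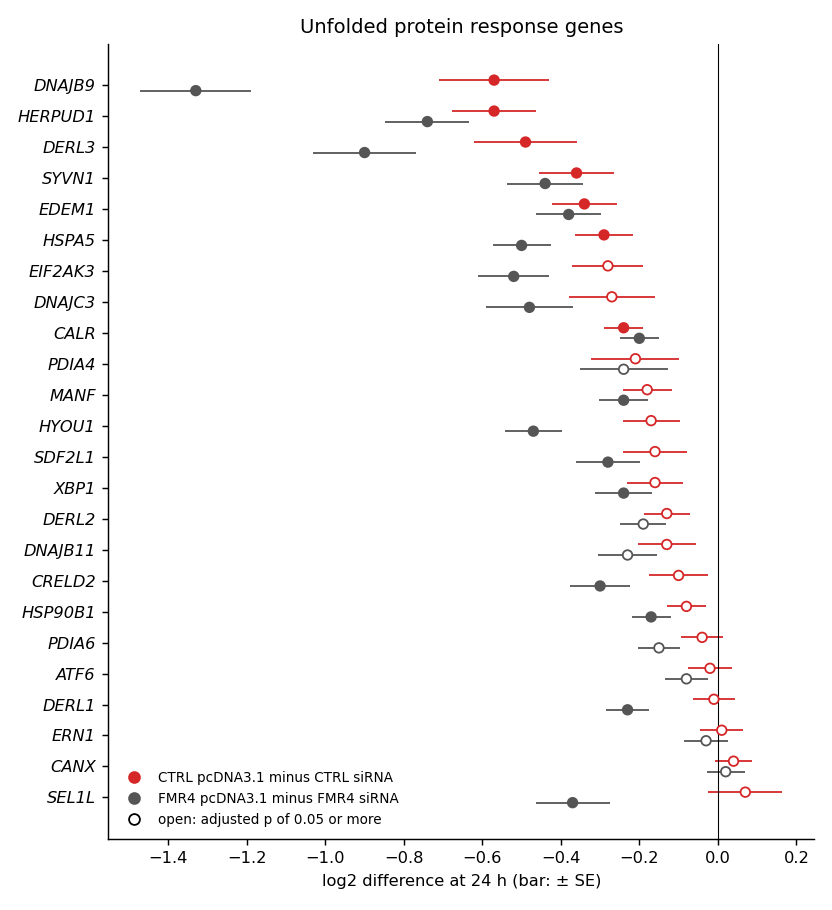
Log2 difference at 24 h of each of the 24 unfolded protein response genes (rows), CTRL pcDNA3.1 minus CTRL siRNA in red and FMR4 pcDNA3.1 minus FMR4 siRNA in grey, with its SE as a bar. Filled points passed an adjusted p of 0.05. Most points lie left of 0 in both pairs, with *DNAJB9* and *HERPUD1* farthest left between the controls.

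The promoters of these genes are known for an ER stress element, CCAAT and CCACG with 9 bases between them, at which NF-Y and ATF6 bind. It was searched on both strands in RefSeq promoters (GRCh38.p14, 250 bases before to 50 after the start), which were found for 14240 of the 18395 genes, and the search was added after the values had been seen. A match stood in 4 of 234 promoters of lower genes (1.71%), in none of 433 promoters of higher genes and in 17 of all 14240 (0.119%). The 4 are shown to let the element be read in place, with it in capitals and up to 25 bases on either side. They are, 5′ to 3′ on the strand of the gene, *HSPA5* at chr9:125241366-125241434 (minus strand), *FICD* at chr12:108515098-108515166 (plus strand), *CALR* at chr19:12938359-12938427 (plus strand) and *SERP1* at chr3:150546685-150546746 (minus strand), the last 2 with the element in reverse complement.
HSPA5: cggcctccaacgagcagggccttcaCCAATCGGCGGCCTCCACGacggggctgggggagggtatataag
FICD: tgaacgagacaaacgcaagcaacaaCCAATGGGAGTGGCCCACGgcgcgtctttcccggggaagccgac
CALR: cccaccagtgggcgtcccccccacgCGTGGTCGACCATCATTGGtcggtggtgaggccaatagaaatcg
SERP1: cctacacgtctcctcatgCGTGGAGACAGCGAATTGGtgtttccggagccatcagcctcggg

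*SERP1*, a small protein that stabilises newly made membrane proteins at the ER, had 11.84, 11.87 and 11.87 in CTRL pcDNA3.1 and 12.11, 12.03 and 12.21 in CTRL siRNA. *FICD*, the enzyme that AMPylates BiP, had 8.96, 8.87 and 8.77 in CTRL pcDNA3.1 and 9.32, 9.06 and 9.39 in CTRL siRNA. The groups did not overlap in either, with differences of −0.26 (adjusted p = 0.00421) and −0.39 (adjusted p = 0.0168). The call of *FICD* was lost without CTRL siRNA replicate 1 or 3 or CTRL pcDNA3.1 replicate 2 or 3 (adjusted p up to 0.111). That of *HSPA5* was lost in 5 of the 6 fits with 1 array left out, and that of *CALR* in 1. A fit with the replicate number as a block ended the calls of *HSPA5*, *CALR* and *SERP1*, so the share of lower genes with the element rests on calls that are not firm. Neither *SERP1* nor *FICD* is on the list of 24 genes. The element also stood in promoters of 13 genes that did not pass, among them *XBP1*, *HSP90B1*, *CRELD2* and *CANX*, and *CANX* (calnexin) had a difference of 0.04.

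CCAAT by itself was found in 47.9% of the promoters of lower genes, 33.9% of those of higher genes and 36.3% of all promoters. CCGGAAG, the core of sites for ETS factors, stood in 21.8% of lower, 17.3% of higher and 14.6% of all promoters, and the medians of their GC content were 64.8%, 67.0% and 63.0%. The palindrome TGACGTCA, a site for CREB and ATF proteins, was as common among lower genes (2.56%) and higher genes (2.54%) as among all (2.65%). A lower gene with that palindrome was *NR6A1*, described above, in whose promoter it is given in capitals at chr9:124771303-124771360 (minus strand), and another was *DUSP1*, a phosphatase that inactivates MAP kinases, at chr5:172771288-172771345 (minus strand).
NR6A1: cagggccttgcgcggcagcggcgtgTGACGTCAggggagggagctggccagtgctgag
DUSP1: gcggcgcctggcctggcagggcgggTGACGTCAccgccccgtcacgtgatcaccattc
The other motifs searched on both strands were TATAAA, the TATA box, which stood in 5.98% of lower, 6.7% of higher and 9.0% of all promoters, and CACGTG, the E-box, in 11.5%, 11.8% and 8.88%. Sites for AP-1 (TGANTCA) stood in 3.85%, 2.77% and 5.58%, for NRF1 (TGCGCA) in 15%, 13.2% and 11%, and for E2F (TTTCGCGC) in 1.71%, 0.693% and 0.836%. The interferon element (TTTCNNTTT) stood in 7.26%, 6.93% and 8.24%, and the sterol element (TCACCCCAC) in 0.427%, 0.462% and 0.393%. A match is a description of the letters and not evidence of binding.

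The integrated stress response list had 2 lower (8.0%, against 1.59% of all genes) and no higher members of 25. *ATF3*, a stress-induced transcription factor, had 7.61, 7.55 and 7.78 in CTRL pcDNA3.1 and 8.49, 7.73 and 8.76 in CTRL siRNA. *DDIT3* (CHOP), which promotes cell death under prolonged stress, had 8.68, 8.74 and 8.65 in CTRL pcDNA3.1 and 9.20, 8.71 and 9.39 in CTRL siRNA. In both genes CTRL siRNA replicate 2 fell among the CTRL pcDNA3.1 values, so the groups overlapped. The differences were −0.68 (SE 0.165, adjusted p = 0.0183) and −0.41 (SE 0.109, adjusted p = 0.0321), and the calls were lost in 4 and 5 of the 6 fits with 1 array left out (adjusted p up to 0.142 and 0.217). *DUSP1* was the only called gene of 27 in the immediate-early list (3.7%), at −0.43, and its call was lost in 4 of those fits. *NDRG1*, a hypoxia- and stress-induced gene, was lower by 0.44 on the log2 scale as the only called gene of the 33 of glycolysis and hypoxia (3.03%). *HSF1*, the heat shock transcription factor, was lower by 0.29 as the only called one of 21 chaperone genes (4.76%). The share of all genes that were lower was 1.59%. The call of *NDRG1* was lost in 4 of the 6 fits and that of *HSF1* without CTRL pcDNA3.1 replicate 2 (adjusted p = 0.0731).

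Members of the TGF-β pathway went in both directions. Activin, TGF-β and BMP ligands bind pairs of receptors that phosphorylate SMAD proteins, which SKI and TGIF1 hold in check in the nucleus. Of 30 genes, 5 (16.7%) were lower, against 1.59% of all, and 2 (6.67%) were higher, against 2.9%. The receptor gene *TGFBR1* had 10.14, 10.15 and 10.06 in CTRL pcDNA3.1 and 9.65, 9.60 and 9.59 in CTRL siRNA. The signal transducer gene *SMAD2* had 9.47, 9.67 and 9.52 in CTRL pcDNA3.1 and 9.06, 8.95 and 9.07 in CTRL siRNA. Both were higher in CTRL pcDNA3.1 without overlap, *TGFBR1* by 0.50 (adjusted p = 0.000249) and *SMAD2* by 0.53 (adjusted p = 6.3e-05), and kept their calls with any 1 array left out. The lower genes were the ligand gene *INHBA*, the receptor genes *TGFBR2* (−0.38) and *ACVR2B* (−0.30) and the corepressor genes *SKI* (−0.37) and *TGIF1* (−0.30). Of these, *INHBA* alone kept its call with any 1 array left out. The list median was 0.01.

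Genes of traffic to and from the cell surface were also mixed. In the list of COPII, COPI and ER export, 4 of 29 genes (13.8%) were higher, against 2.9% of all genes, namely *SAR1B*, the cargo adaptors *SEC24A* (0.44) and *SEC24B* (0.35), and the cargo receptor *SURF4* (0.28), while the adaptor *SEC24D* was lower (−0.51) and the list median was −0.06. *SEC24D* had values of opposite order to its paralogs, and its call was lost without CTRL siRNA replicate 3 (adjusted p = 0.0608), as was that of *SURF4* without CTRL siRNA replicate 2 or 3 or CTRL pcDNA3.1 replicate 3. Of 36 endocytosis genes, 4 (11.1%) were lower, against 1.59% of all genes, and none was higher. They were *AP2A1*, a subunit of the clathrin adaptor AP2, *RAB5B* and *RAB5C*, GTPases of early endosomes, and *DNM2*, the dynamin that cuts vesicles off, at −0.34, −0.28, −0.22 and −0.23, and each lost its call without CTRL siRNA replicate 1 and without CTRL pcDNA3.1 replicate 2. Among 34 lysosome and autophagy genes, 3 (8.82%) were lower, against 1.59% of all genes, and 1 (2.94%) was higher, against 2.9%. *SQSTM1* (p62, which takes cargo into autophagosomes), *WIPI1* and *ATP6V0D1* were lower by 0.33, 0.30 and 0.22 on the log2 scale. *LAMP2*, a lysosomal membrane protein, was higher by 0.29. Each of these calls was lost in 4 or 5 of the 6 fits.

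**Figure D3:**
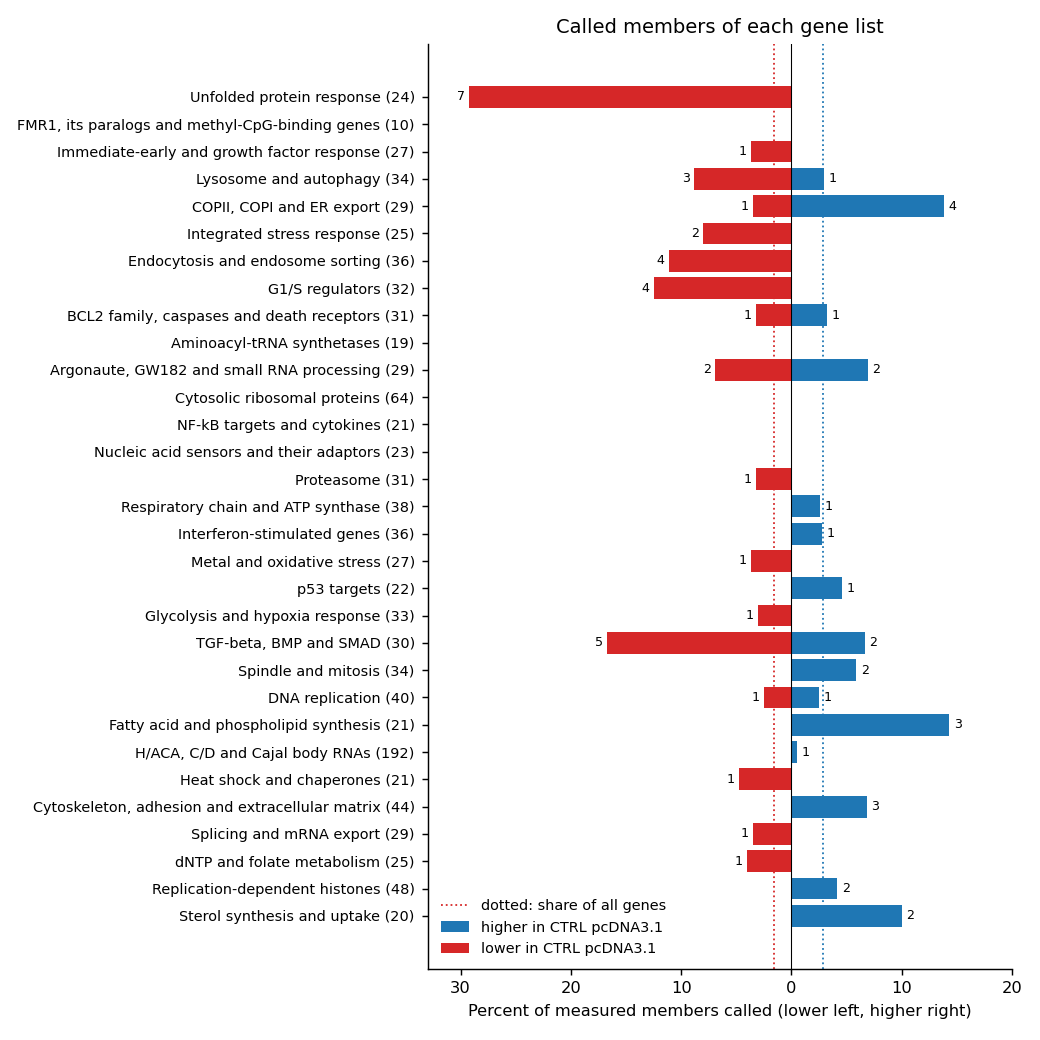
Share of the measured members of each functional list (their number in brackets) that was lower (left, red) or higher (right, blue) in CTRL pcDNA3.1 at 24 h, with the number of genes at each bar. Lists are ordered by their median difference, the lowest at the top, and dotted lines mark 1.59% and 2.9%, the shares of all genes. The unfolded protein response stands out on the left with 7 of 24 genes.

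Of the machinery that small RNAs use, 2 of 29 genes (6.90%) were higher, against 2.9% of all, and 2 (6.90%) lower, against 1.59%, and the median was −0.01. *AGO1*, an Argonaute, had 10.59, 10.57 and 10.42 in CTRL pcDNA3.1 and 10.99, 10.91 and 10.98 in CTRL siRNA. Its GW182 partner *TNRC6B* had 9.35, 9.52 and 9.33 in CTRL pcDNA3.1 and 9.85, 9.73 and 9.86 in CTRL siRNA. Another GW182 partner, *TNRC6A*, had 10.61, 10.64 and 10.52 in CTRL pcDNA3.1 and 10.35, 10.22 and 10.31 in CTRL siRNA. *TNRC6A* and *TNRC6B* thus stood in opposite order between the groups, neither with overlap. The differences were −0.43 for *AGO1*, −0.41 for *TNRC6B*, 0.30 for *TNRC6A* and 0.33 for *CNOT3*, a subunit of the CCR4-NOT deadenylase, all kept with any 1 array left out.

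Of 32 G1/S regulators 4 (12.5%) were lower, against 1.59% of all genes, and none was higher. These were *CCNE1* (cyclin E1, −0.31), *CDKN1B* (the inhibitor p27, −0.32), *CCND3* (cyclin D3, −0.26) and *E2F4* (a repressive E2F, −0.25), and *CCNE1* alone kept its call with any 1 array left out. Of 34 spindle and mitosis genes 2 (5.88%) were higher, against 2.9% of all genes, and none was lower. They were *KIF11*, the kinesin that separates spindle poles (0.40), and *PRC1*, which bundles midzone microtubules (0.31), both with any 1 array left out. DNA replication had *CHAF1A* higher (0.25) and *RPA2* lower (−0.29) of 40. These shares of 2.5% each lie near the 2.9% and 1.59% of all genes, and the calls were lost in 5 and 4 of the 6 fits. Of 48 replication-dependent histone genes 2 (4.17%), *H4C8* and *H4C4*, were higher by 0.53 and 0.28, against 2.9% of all genes. Histone genes resemble each other in sequence, so their probe sets may share signal, and the call of *H4C4* was lost in 3 of the 6 fits.

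With the values as deposited, 2 of 20 sterol genes and 3 of 21 fatty acid genes were higher, and none was lower. The shares of all genes were 2.9% higher and 1.59% lower. The called sterol genes were *STARD4*, a cholesterol carrier (0.53), and *IDI1*, an enzyme of isoprenoid synthesis (0.26). The called fatty acid genes were *ELOVL6* (0.34), *SCD* (0.28) and *FADS1* (0.21), which lengthen or desaturate fatty acids. *STARD4* kept its call with any 1 array left out. The others lost theirs in at least 5 of the 6 fits and when arrays were centred on their medians. With that centring, the sterol list had 1 higher and no lower gene, and the fatty acid list had 1 lower and no higher gene.

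Of 36 interferon-stimulated genes, 1 (2.78%) was higher, near the 2.9% of all genes, and none was lower. This was *IFIT5*, with 8.34, 8.27 and 8.30 in CTRL pcDNA3.1 and 7.92, 7.75 and 7.97 in CTRL siRNA. Its difference of 0.42 on the log2 scale (adjusted p = 0.00675) lost its call without CTRL siRNA replicate 2 (adjusted p = 0.0508). None of 23 genes of nucleic acid sensors and their adaptors and none of 21 NF-κB targets and cytokines passed the limma test, beside 4.49% of all genes. Of these lists, 1 and 2 genes had an unadjusted p under 0.05. None of 64 cytosolic ribosomal protein genes (3 at an unadjusted p under 0.05) and none of 19 aminoacyl-tRNA synthetase genes (0) passed either. *NEFM*, a neurofilament gene that HEK293 cells express, was higher by 0.67, with 10.13, 10.07 and 9.94 in CTRL pcDNA3.1 and 9.49, 9.26 and 9.39 in CTRL siRNA. For the remaining lists, the shares of all genes were 2.9% higher and 1.59% lower. *DDB2* (0.35) was the only called p53 target of 22 (4.55%). *NDUFA5* was the only called one of 38 respiratory chain genes (2.63%), and *SNORD45A* (0.33) the only one of 192 small nucleolar and Cajal body RNAs (0.521%). All 3 were higher. Single lower genes were *GPX1* (−0.52) of 27 in metal and oxidative stress (3.7%), *CMPK1* (−0.28) of 25 in nucleotide and folate metabolism (4.0%), *PSMC4* (−0.22) of 31 proteasome genes (3.23%) and *UPF1* (−0.31) of 29 in splicing and export (3.45%). *BIRC2* was higher (0.26) and *BAK1* lower (−0.26) of 31 apoptosis genes, 3.23% each. Of 480 zinc finger genes, 11 (2.29%) were higher and 4 (0.833%) lower, with *ZNF217* (0.54) and *ZNF92* (0.44) among the rises and *ZNF503* (−0.37) among the falls. Leaving out 1 array ended the calls of *BIRC2* in 6 of the 6 fits, of *DDB2*, *BAK1* and *SNORD45A* in 5, of *PSMC4* in 3, of *CMPK1* in 2 and of *UPF1* in 1 (without CTRL pcDNA3.1 replicate 2), whereas those of *NEFM*, *GPX1*, *NDUFA5* and the 3 zinc finger genes were kept.

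Since the controls are the baselines of both arms, the genes that the study is about were read in them too. *FMR1* had 10.39, 10.42 and 10.37 in CTRL pcDNA3.1 and 10.57, 10.53 and 10.51 in CTRL siRNA, without overlap. Its difference of −0.14 (SE 0.0604) did not pass (adjusted p = 0.221). *MBD4* had 10.14, 10.13 and 10.09 in CTRL pcDNA3.1 and 10.19, 10.11 and 10.21 in CTRL siRNA, with overlap and a difference of −0.05 (SE 0.0524, adjusted p = 0.74). Of the study's discordant list, which was chosen on arrays that include these 6 and is no independent evidence, 25 of the 76 measured genes (32.9%) were lower between the controls, against 1.59% of all genes. They included *ZMYND11*, *TTPAL* (−0.53), *TRAPPC14* (−0.46) and *GPX1*. The number was between 13 and 24 with 1 array left out. Of the study's concordant list, chosen on the same arrays, none of the 135 measured genes was called between the controls, beside 4.49% of all genes.

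A contrast of plasmid with siRNA could also be read on 6 other arrays of 24 h, in which FMR4 pcDNA3.1 cells were compared with FMR4 siRNA cells. That pair was also meant to differ in *FMR4*, and its siRNA was another one than the control siRNA. These 2 features cannot be told apart here. In it 593 genes (3.22%) were higher and 951 (5.17%) lower in FMR4 pcDNA3.1, and arrays did not overlap in 28.3% of genes. Genes lower in CTRL pcDNA3.1 were mostly lower there as well. Of the 293, 179 were called lower in FMR4 pcDNA3.1, which is 61.1% of them and 18.8% of the 951, and 7 were called higher. Their median difference in the FMR4 pair was −0.28, with 271 of 293 below 0, beside −0.01 over all genes. Genes higher in CTRL pcDNA3.1 were shared less. Of the 533, 99 were called higher in FMR4 pcDNA3.1, which is 18.6% of them and 16.7% of the 593, and 19 were called lower. Their median difference in the FMR4 pair was 0.04, with 312 of 533 above 0. Over all genes the 2 differences had a Pearson r of 0.389 and a Spearman rho of 0.333, as a description across genes, which are not independent replicates.

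**Figure D4:**
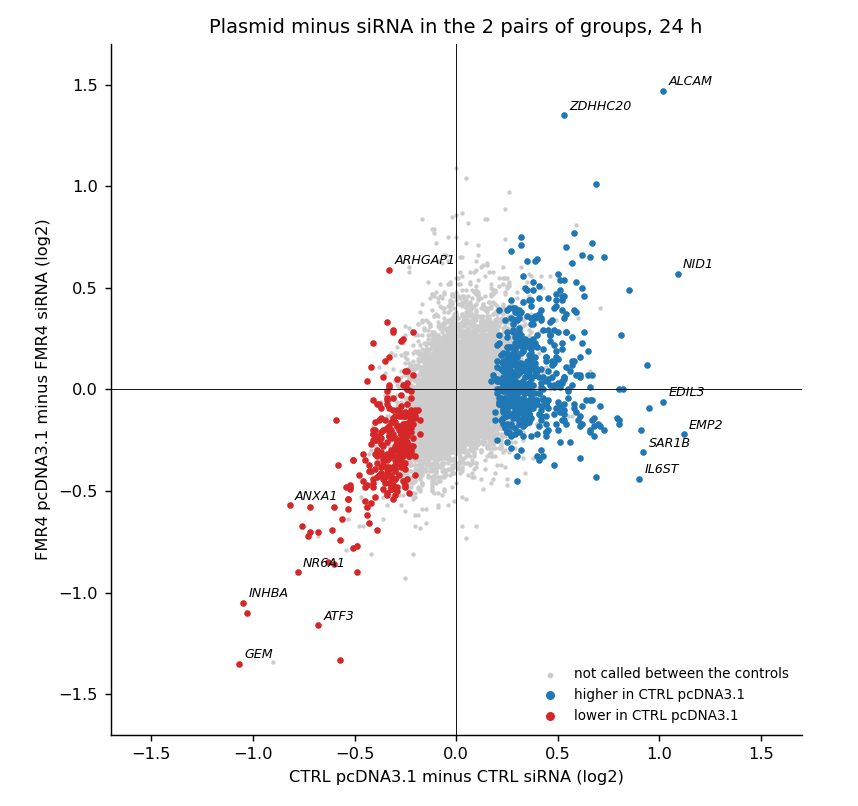
Log2 difference of each of the 18395 genes between CTRL pcDNA3.1 and CTRL siRNA (horizontal) and between FMR4 pcDNA3.1 and FMR4 siRNA (vertical) at 24 h. The 293 genes lower in CTRL pcDNA3.1 (red) mostly lie below 0 on the vertical axis, and the 533 higher genes (blue) spread on both sides of it.

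The difference between the pairs was tested directly, as the CTRL difference minus the FMR4 difference. It passed in 391 genes (2.13%). It passed with the greater CTRL difference in 175 of the 533 higher genes (32.8%), and with the deeper CTRL difference in 16 of the 293 lower genes (5.46%). These genes were chosen on the CTRL difference, which favours this outcome, so the 2 counts are a description. *ANKRD52*, *INHBA* and *PTGS2* had differences of −0.72, −1.05 and −1.10 in the FMR4 pair, and the test of the difference between pairs gave adjusted p of 0.999, 0.999 and 0.975, with SE of 0.0884, 0.235 and 0.271 for a pair difference of 0.00, 0.00 and 0.07. *INHBA* had 6.75, 6.92 and 6.99 in FMR4 pcDNA3.1 and 7.87, 8.0 and 7.93 in FMR4 siRNA, so its 6 siRNA arrays all lay above its 6 plasmid arrays. All 6 siRNA arrays were above all 6 plasmid arrays in 217 of the 293 lower genes (74.1%), against 3.99% of all genes, and all were below in 154 of the 533 higher genes (28.9%), against 2.44%. The genes were chosen on the 6 CTRL arrays, which fixes part of this placement, so the counts are a description. *ALCAM* was such a gene, with 10.73, 10.78 and 10.67 in FMR4 pcDNA3.1 and 9.35, 9.42 and 9.0 in FMR4 siRNA, a difference of 1.47 (adjusted p = 2.98e-09). *NID1* (0.57), *NDUFA5* (0.49), *ZDHHC20*, a palmitoyltransferase (1.35), and *TIGD4* (0.47) were also higher in both pairs.

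In many of the higher genes CTRL siRNA stood apart from every other treatment. Its 3 arrays lay below the other 9 arrays of 24 h in 325 of the 533 higher genes (61.0%), against 3.88% of all genes, and above them in 79 of the 293 lower genes (27.0%), against 1.87%. These counts describe genes chosen on the CTRL siRNA arrays themselves. *EMP2* had 10.32, 10.44 and 10.36 in FMR4 pcDNA3.1 and 10.53, 10.64 and 10.63 in FMR4 siRNA, and *SAR1B* had 11.15, 11.16 and 11.14 in FMR4 pcDNA3.1 and 11.47, 11.54 and 11.39 in FMR4 siRNA. In both genes the FMR4 siRNA arrays were the highest of the 4 groups and CTRL siRNA the lowest. The arrays of both plasmid groups lay side by side. FMR4 siRNA minus CTRL siRNA was 1.34 for *EMP2* and 1.18 for *SAR1B*, and FMR4 pcDNA3.1 minus CTRL pcDNA3.1 was −0.0 and −0.05. Whether *FMR4* or the choice of siRNA lay behind this was not tested. The differences in the FMR4 pair were −0.22 (adjusted p = 0.16) and −0.31 (adjusted p = 0.00976), and the pair differences were 1.34 (SE 0.132, adjusted p = 2.14e-06) and 1.23 (SE 0.106, adjusted p = 4.92e-07). *IL6ST* (−0.44), *SPOPL*, a paralog of the ubiquitin ligase adaptor SPOP (−0.43), *TNRC6A* (−0.45), *DOCK9*, an activator of CDC42 (−0.30), and *HIF1A*, the oxygen-regulated transcription factor (−0.29), were likewise higher between the controls and lower between the FMR4 groups. For each the difference between pairs passed. Calls of opposite sign in both pairs all but fix that outcome, so it adds no evidence. Among these genes, the rise of *HIF1A* between the controls was lost without CTRL pcDNA3.1 replicate 2 (adjusted p = 0.0515). *F2R* (−0.09), *SCAMP1* (−0.20), *TLN1* (−0.17), *RDX* (−0.15), *YWHAH* (−0.14) and *SNRNP27* (−0.18) did not pass in the FMR4 pair. In the other direction *ARHGAP1*, which inactivates CDC42, had 10.99, 10.89 and 10.82 in CTRL pcDNA3.1 and 11.23, 11.21 and 11.24 in CTRL siRNA, against 10.92, 10.89 and 10.89 in FMR4 pcDNA3.1 and 10.27, 10.33 and 10.34 in FMR4 siRNA. It was lower between the controls (−0.33, adjusted p = 0.00224) and higher between the FMR4 groups (0.59, adjusted p = 2.06e-06).

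Of the 24 unfolded protein response genes, 7 were lower in CTRL pcDNA3.1, as given above, and 17 were lower in FMR4 pcDNA3.1, against 5.17% of all genes, with a median of −0.26. The mean of the list was 10.55, 10.62 and 10.51 in FMR4 pcDNA3.1 and 10.87, 10.98 and 10.92 in FMR4 siRNA, where no siRNA array came near the plasmid arrays. *DNAJB9* had a difference of −1.33, *DERL3* of −0.90 and *HSPA5* of −0.50, and *ATF3*, outside the list, of −1.16.

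At 6 h the same control comparison called 295 genes higher (1.6%) and 313 lower (1.7%) in CTRL pcDNA3.1. These counts depended on the arrays in the fit. A fit to the 6 arrays compared called 1383 genes and one to the 12 arrays of 6 h called 8, and leaving out 1 array gave between 9 (without CTRL pcDNA3.1 replicate 3) and 492 (without CTRL siRNA replicate 2). Of the 533 genes higher at 24 h, 65 were also higher at 6 h (12.2% of them and 22.0% of the 295), and of the 293 lower genes 12 were also lower (4.10% of them and 3.83% of the 313). Their medians at 6 h were 0.10 and −0.04. *SAR1B* was among the genes higher at both times, with 11.34, 11.39 and 11.27 in CTRL pcDNA3.1 and 10.86, 10.61 and 10.82 in CTRL siRNA at 6 h, a difference of 0.58 (adjusted p = 0.000552).

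The change of the difference between 6 and 24 h was tested as well, and 139 genes (0.756%) had a higher and 67 (0.364%) a lower difference at 24 h. *EMP2* had 10.52, 10.55 and 10.46 in CTRL pcDNA3.1 and 10.49, 10.37 and 10.49 in CTRL siRNA at 6 h, with overlap, and *NID1* had 11.07, 11.06 and 11.08 in CTRL pcDNA3.1 and 10.99, 10.97 and 11.04 in CTRL siRNA. The differences at 6 h were 0.06 and 0.07, and the difference of 24 h exceeded that of 6 h by 1.05 for *EMP2* (SE 0.132, adjusted p = 0.000618) and by 1.02 for *NID1* (SE 0.107, adjusted p = 6.56e-05). *NR6A1* had 9.26, 9.25 and 9.27 in CTRL pcDNA3.1 and 9.30, 9.38 and 9.15 in CTRL siRNA at 6 h. Its groups overlapped then, and its difference at 24 h was lower than at 6 h by 0.76 (adjusted p = 0.00625). None of the 24 unfolded protein response genes was called at 6 h, where the list mean was 10.72, 10.75 and 10.70 in CTRL pcDNA3.1 and 10.64, 10.71 and 10.68 in CTRL siRNA and the median difference was 0.05. *ATF3* was at 8.12, 8.29 and 8.21 in CTRL pcDNA3.1 and 7.77, 8.03 and 7.78 in CTRL siRNA at 6 h, an order opposite to that of 24 h. Its difference of 0.35 at 6 h did not pass (adjusted p = 0.212), and its call at 24 h was lost in 4 of the 6 fits with 1 array left out. The difference between times was −1.03 for *ATF3* (adjusted p = 0.0351). *ANXA1* had a difference of −0.68 at 6 h (adjusted p = 0.0595).

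**Figure D5:**
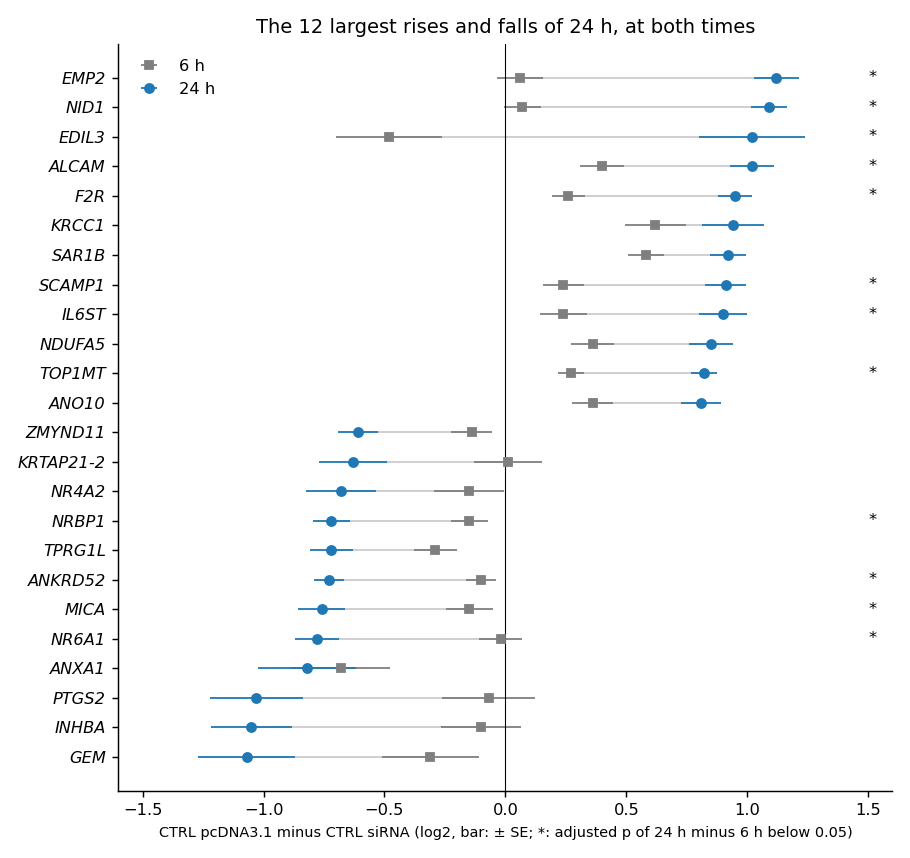
Log2 difference of CTRL pcDNA3.1 minus CTRL siRNA at 6 h (grey squares) and 24 h (blue circles), with SE bars, for the 12 largest rises (upper rows) and 12 largest falls (lower rows) of 24 h. Most differences at 6 h lie nearer to 0 than those of 24 h, and asterisks mark genes whose difference between times passed. *ANXA1* lies at −0.68 at 6 h and −0.82 at 24 h.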

How the data were processed

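RNA of HEK293T cells was measured on 24 arrays, 3 for each of 8 groups. Per the methods, the authors subtracted background and normalized with GC-RMA, of which the version is not given in the sources used here. As deposited, the log2 values lie between 2.62 and 14.5, and they were used unchanged. The number of arrays limits the precision. The series' design text calls the arrays biological replicates without naming separate cultures, so p-values measure only the spread between these samples, which may be technical.

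Of 33297 probe sets, 21214 had a gene in the platform annotation and 19460 a single symbol, after 27 symbols had been updated. These stand for 18395 genes, each read from its probe set of highest mean. One mean per group was fitted to all 24 arrays (limma 3.58.1 in R 4.3.3, two-sided, 16 residual degrees of freedom), with Benjamini-Hochberg adjustment over the 21214 probe sets and a threshold of 0.05. The contrast of the pairs was added later. The fit was tested on simulated data.

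Genes are named by a rule, which takes the 12 largest called rises and falls without overlap of arrays and with a higher mean above the silent level, up to 3 genes of lowest p per list, *FMR1* and *MBD4*, and the genes of lowest p for the change between times, for opposite and for like signs in both pairs. Other genes of lists and motifs were named after their values were seen. The groups compared and the lists were chosen with earlier results of these data known. Promoters and coordinates are from RefSeq (GRCh38.p14), using the first entry of a symbol. Alternatives were other samples in the fit, moderation, array weights, quantile and median scaling, a filter on dim probe sets, all probe sets, the mean of a gene's probe sets, the replicate number as a block, stricter thresholds, and each array left out. Python 3.11.15 and its library matplotlib 3.10.9 served for plotting.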

Additional observations from a re-analysis of the deposited data

Results flagged for a closer look

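The difference of CTRL pcDNA3.1 minus CTRL siRNA changed between 6 and 24 h in 206 genes by the test of that change itself, in limma with an adjusted p under 0.05. Among the genes named by the rule, the change (24 h minus 6 h, log2) was positive for *EDIL3* (1.5), *EMP2* (1.05), *NID1* (1.02), *F2R* (0.69), *RDX* (0.67), *SCAMP1* (0.67), *IL6ST* (0.66), *SNRNP27* (0.63), *ALCAM* (0.62), *YWHAH* (0.58), *TUBB2B* (0.57), *TOP1MT* (0.55), *TGFBR1* (0.51), *DDB2* (0.50), *ZNF217* (0.49) and *TLN1* (0.43). It was negative for *ATF3* (−1.03), *NR6A1* (−0.76), *RNVU1-4* (−0.76), *CALCRL* (−0.75), *ANKRD52* (−0.62), *MICA* (−0.61), *TMCC1* (−0.60), *ATG14* (−0.59), *NRBP1* (−0.57), *AP2A1* (−0.54), *TRAK2* (−0.45), *AGO1* (−0.44), *CMPK1* (−0.41), *TTPAL* (−0.41) and *ARHGAP1* (−0.39). The 6 h arrays enter all of these values, and the count lay between 42 and 250 with 1 array left out.

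Of these genes, *RNVU1-4*, a variant U1 small nuclear RNA, was called at 6 h (0.74) and had a difference of −0.03 at 24 h, and *CALCRL*, a receptor component for calcitonin-related peptides near the silent level, was called in opposite directions, at 0.43 at 6 h and −0.33 at 24 h. The call of *CALCRL* at 24 h was lost in 3 of the 6 fits with 1 array left out (adjusted p up to 0.163), over all probe sets and with the replicate number as a block.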

How the results depend on the processing

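Of the 94 named genes with a call, 56 kept it with any 1 array left out, 65 kept it under all other settings, and none turned its direction. Counts moved more. The total of 826 at 24 h became 1894 with array weights, 360 at an adjusted p under 0.01 and 73 at 1.5-fold. The 533 higher genes became 1097, 251 and 57 in the same order, and 324 with median centring. The 293 lower genes became 797, 109 and 16, 514 with quantile normalization and 626 with median centring. With array weights the FMR4 pair had 2837 calls, the controls at 6 h 3262, the change between times 1928, and both pairs shared 219 higher and 448 lower genes, beside 53 and 338 with median centring. At 6 h there were 1383 calls in a fit to the 6 arrays compared, 8 in one to the 12 arrays of 6 h and 252 over all probe sets. The change between times had 962 in a fit to its 12 arrays and 80 over all probe sets, where 60 shared genes were higher. The cause was not tested.

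With 1 array left out, the total at 24 h was 367 to 674, with 255 to 405 higher and 112 to 269 lower genes. The lower count was 112 without CTRL pcDNA3.1 replicate 2, 113 without its replicate 3, and 127 and 122 without CTRL siRNA replicate 1 and 3, and the higher count was 255 without CTRL pcDNA3.1 replicate 2, 302 and 334 without CTRL siRNA replicate 2 and 3. The range was 808 to 1429 for the FMR4 pair (808 without FMR4 pcDNA3.1 replicate 3), 9 to 492 for the controls at 6 h, and 42 to 250 for the change between times (42 without CTRL pcDNA3.1 24 h replicate 2). The genes shared by both pairs numbered 46 to 87 (higher) and 79 to 179 (lower).

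The arrays were not treated as paired by replicate number. The same-number correlations between the controls were 0.0581, −0.0941 and −0.0174 at 24 h, and 1 of 3 numbers matched best. In the FMR4 pair of 24 h they were 0.151, −0.0971 and 0.32. Such values from 3 arrays a group cannot exclude a batch shared by equal numbers. With the replicate number as a block, 618 genes were called at 24 h (429 higher, 189 lower), and 502 for the change between times. The block left 2 of the 7 unfolded protein response calls. It ended the calls of 22 genes named by the rule, *TNRC6A* among them. In that count, genes named only for the change between times stand with the test of that change. Calls of 24 h outside that count were lost as well, among them those of *CALCRL*, *CNOT3*, *SERP1*, *SEC24D*, *DNM2*, *WIPI1* and *TGIF1*.

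Median centring lowered the medians of all 41 lists, by 0.05 or 0.06 on the log2 scale, and put 37 below their range with 1 array left out, among them nucleic acid sensors, proteasome and mostly silent genes (−0.06 each), DNA replication (−0.03) and splicing (−0.01). Quantile normalization put 13 below it. Precision is limited by 3 arrays a group.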
